A study of Mus musculus with 24 samples.

Results

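Levels of 10 genes of cholangiocytes, liver progenitor cells and the fetal liver (Sox9, Krt7, Krt19, Krt8, Krt18, Epcam, Spp1, Afp, Cd24a and Tnfrsf12a) were examined in whole-liver RNA-seq of mice lacking E2f7 and E2f8, before and after acetaminophen (APAP) overdose. The genes were taken by symbol from the 24411 genes of the count files, all 10 were found, and the counts that disregard strand were used. The data comprised 24 libraries of polyA RNA. At 0 h, 14 single mice without APAP were sequenced. At 12, 24, 48, 72 and 96 h after APAP, each of 10 libraries was a pool of 3 mice, with 1 pool per genotype and time point.

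All mice were males on a mixed background that is predominantly FVB, about 2.5 months old, homozygous for floxed E2f7 and E2f8 alleles (loxP/loxP) and carrying the R26R-mTmG reporter, and all were fasted overnight for about 16 h. LKO mice also carried Alb-Cre (Tg/0), and their controls were littermates without Cre, with 4 LKO and 4 control mice at 0 h and 5 pools of each genotype after APAP. Alb-Cre acts from liver development onward in cells that express albumin, so the deletion can also reach bile duct cells that descend from them. HKO mice were deleted as adults, at 2 months, with AAV8-TBG-Cre, whose promoter is active in hepatocytes, and their controls received AAV8-TBG-Null, with 3 mice in each group, all at 0 h. Loss of E2f7 and E2f8 during development leaves most LKO hepatocytes diploid, whereas adult hepatocytes are already mostly polyploid when the virus is given, so LKO mice differ from their controls in ploidy as well as in both genes. APAP was given intraperitoneally at 300 mg/kg. Levels are given as CPM, the counts of a gene relative to all reads on genes, scaled between libraries with TMM factors.

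Cholangiocytes line the bile ducts and share a bipotent fetal ancestor, the hepatoblast, with hepatocytes. They express the keratins Krt7 and Krt19, the adhesion protein Epcam and the transcription factor Sox9, whereas adult hepatocytes make only the keratin pair Krt8 and Krt18. After injury, some hepatocytes take up duct and fetal features, bile ductules can expand, and infiltrating cells can express some of the same genes. In whole-liver RNA, fewer cells of a type and less RNA per cell cannot be told apart.

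The promoters of the genes with the largest changes are shown first, as the stretch of 250 bases before the RefSeq start site on GRCm38.p6, read 5′ to 3′ on the strand of the gene. Promoters of 7 of the 10 genes were found in the RefSeq table. Sox9, Krt19 and Cd24a had no entry. Capitals mark matches to 6 motifs searched on both strands: the TATA box TATAAA, the HNF1 site GTTAATNAT, the AP-1 site TGANTCA, the E2F site TTTNNCGC, the TEAD site CATTCC and the RBPJ site GTGGGAA, where N is any base.
Afp (chr5:90490464-90490713, plus strand): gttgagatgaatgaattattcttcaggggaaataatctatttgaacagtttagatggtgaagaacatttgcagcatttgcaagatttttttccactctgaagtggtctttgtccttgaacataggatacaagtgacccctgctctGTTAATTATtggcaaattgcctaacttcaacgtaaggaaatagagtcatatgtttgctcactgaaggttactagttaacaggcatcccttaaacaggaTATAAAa
Krt8 (chr15:102004343-102004592, minus strand): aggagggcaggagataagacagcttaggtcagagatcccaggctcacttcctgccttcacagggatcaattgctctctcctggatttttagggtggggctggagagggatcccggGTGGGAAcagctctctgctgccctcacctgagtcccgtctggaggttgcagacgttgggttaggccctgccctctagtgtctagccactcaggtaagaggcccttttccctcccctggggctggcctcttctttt
Krt18 (chr15:102027966-102028215, plus strand): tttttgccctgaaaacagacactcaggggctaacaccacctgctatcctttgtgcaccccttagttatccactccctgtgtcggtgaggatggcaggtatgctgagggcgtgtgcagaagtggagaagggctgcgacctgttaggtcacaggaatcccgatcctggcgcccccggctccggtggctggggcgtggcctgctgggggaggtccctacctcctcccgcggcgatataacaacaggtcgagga
Tnfrsf12a (chr17:23677450-23677699, minus strand): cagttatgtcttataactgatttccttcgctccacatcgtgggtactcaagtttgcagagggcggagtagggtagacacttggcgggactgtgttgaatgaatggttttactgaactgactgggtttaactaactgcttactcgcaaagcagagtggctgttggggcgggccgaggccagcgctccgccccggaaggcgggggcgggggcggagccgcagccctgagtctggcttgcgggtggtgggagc
The Afp promoter held GTTAATNAT from -105 to -97 and TATAAA from -7 to -2, counted back from the start site. The Krt8 promoter held GTGGGAA from -135 to -129, and 1 of the 2 Spp1 promoters of the table, not shown, held TATAAA from -211 to -206. Among all 32851 promoters of this table, 0.737% held GTTAATNAT, 12.4% TATAAA, 5.42% GTGGGAA, 6.75% TGANTCA, 4.28% TTTNNCGC and 12.6% CATTCC. No letters of the 6 motifs were found in these windows of Krt18, Tnfrsf12a, Krt7 and Epcam. The RefSeq start sites differ from the gene limits of GENCODE vM21 given below. By GENCODE, Krt8 starts at 102004482 on the minus strand, inside its window, so its GTGGGAA lies within the gene. Afp starts at 90490737 there, after the end of its window.

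Reads on genes ranged from 12665686 to 19499897 per library, and 3 counts corresponded to 0.144 to 0.253 CPM. This limit covers counting error only. Counts over the whole E2f8 gene were higher in the deleted groups (30.6 to 83.4 CPM in HKO against 14.8 to 26.4 in their controls, and 18.0 to 34.1 CPM in LKO at 0 h against 11.8 to 18.9), and E2f7 lay at 0 to 66 counts in every library. Counts over whole genes do not resolve the floxed exons and so do not check the genotype. Reads without a gene feature were 12.6% to 14.7% of reads in the HKO cohort and 8.47% to 10.8% in the LKO cohort at 0 h. Counts of every pair of replicates differed by more than sampling noise, with a chi-square per gene of at least 15.5.

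At 0 h the genes spanned a wide range of levels. Per kilobase of exon, Krt8 and Krt18 stood highest in the LKO-cohort controls, at 137 ± 17.7 and 128 ± 10.3 RPKM (mean ± SD, n = 4). Spp1, which encodes the secreted matrix protein osteopontin, followed at 27.0 ± 9.46 RPKM and Tnfrsf12a, the receptor for the cytokine TWEAK, at 4.06 ± 0.332 RPKM. Sox9 (1.40 ± 0.326 RPKM), Epcam (1.2 ± 0.560), Cd24a (0.893 ± 0.367) and Krt19 (0.874 ± 0.193) came next and lay within their SDs of the neighbouring gene in this order. Afp, the major plasma protein of the fetal liver, stood at 0.486 ± 0.252 RPKM and Krt7 at 0.152 ± 0.0534 RPKM. The means of Krt8 and Krt18 lay within their SDs of each other in this group. Within each of the 4 mice Krt8 was the higher, with ratios of 1.075, 1.054, 1.007 and 1.145.

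Genes of cholangiocytes made up a small part of these libraries. Among 16 other cholangiocyte genes, 6 had no counts in at least 1 library of the LKO cohort, including Cftr, the chloride channel of duct cells, and Sctr, the secretin receptor. Alb, the hepatocyte product albumin, reached 60560 ± 17630 CPM in controls at 0 h (SD, n = 4). The summed level of the 16 genes lay between 34.8 and 44.2 CPM in the 4 control mice at 0 h and between 33.6 and 44.6 CPM in the 4 LKO mice.

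The first comparison asked whether these genes differed between LKO or HKO livers and their controls before injury. In LKO livers at 0 h, none of the 10 genes was called, where a call is an adjusted p under 0.05 (edgeR's quasi-likelihood test, Benjamini-Hochberg over all genes tested) and a fold change of at least 1.5. None of all 12426 genes tested was called either (0%), against 352 genes at an unadjusted p under 0.05 and 3 called by DESeq2. None of the 10 genes had an unadjusted p under 0.05, and DESeq2 called none of them. The control and LKO mice overlapped in all 10 genes, and 1.75% of all genes tested did not overlap.

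Sox9, the transcription factor that marks ducts and periportal hepatocytes (ENSMUSG00000000567, chr11:112782224-112787760, plus strand, GRCm38), measured 4.43, 7.59, 5.22 and 5.97 CPM in control mice and 4.55, 4.08, 3.63 and 4.51 CPM in LKO mice at 0 h. The LKO mice were mostly lower, and the groups overlapped. Its log2 fold change was -0.46 ± 0.21 (SE, adjusted p = 0.999 in edgeR's quasi-likelihood test), with a 95% interval from -0.93 to 0.00. The other 9 genes had log2 fold changes between -0.26 (Tnfrsf12a) and 0.37 (Cd24a). The intervals were narrow for Krt18 (0.813-fold to 1.23-fold) and Krt8 (0.710-fold to 1.08-fold), and wide for the low genes Afp (0.470-fold to 1.78-fold), Epcam (0.570-fold to 1.60-fold) and Krt7 (0.728-fold to 2.19-fold).

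In HKO livers, 9 of the genes passed the filter on low counts and none was called by edgeR or DESeq2, against 0.96% of the 12397 genes tested with edgeR. Sox9 and Krt18 had an unadjusted p under 0.05, as did 12.9% of all genes tested. Krt7 did not pass, with 1 to 9 counts per library in the HKO cohort. Sox9 measured 8.10, 5.93 and 6.06 CPM in the 3 Null controls and 11.4, 10.8 and 7.84 CPM in the 3 HKO mice. The HKO mice were mostly higher, and the lowest of them lay below the highest control. Between HKO and Null mice, the log2 fold change of Sox9 was 0.58 ± 0.21 (SE, adjusted p = 0.283 in edgeR's quasi-likelihood test). Krt18 measured 200, 185 and 194 CPM in controls and 260, 224 and 204 CPM in HKO mice, and it was the only one of the 9 whose groups did not overlap, as did those of 18% of all genes tested. Its log2 fold change was 0.25 ± 0.11 (adjusted p = 0.376).

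Tnfrsf12a measured 4.29, 3.86 and 5.18 CPM in Null controls and 11.3, 5.6 and 4.48 CPM in HKO mice. One HKO mouse stood above the rest and the groups overlapped (log2 fold change 0.68 ± 0.34, SE, adjusted p = 0.445 in edgeR's quasi-likelihood test). The remaining 6 tested genes had log2 fold changes between 0.03 (Afp) and 0.52 (Cd24a). Among the other cholangiocyte genes, Krt23, a type I keratin, was lower in HKO mice, at 4.93 ± 1.03 CPM against 11.5 ± 2.04 CPM (SD, n = 3 each, log2 fold change -1.23 ± 0.22, adjusted p = 0.0348), and it was the only one of the 6 tested that was called.

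How far the effects of LKO and HKO differed was also tested, and the test called none of the 10 genes, nor any of the 12945 genes tested (0%), against 579 at an unadjusted p under 0.05 and 21 called by DESeq2. It was -1.05 ± 0.30 on the log2 scale for Sox9 (adjusted p = 0.775), the only one of the 10 with an unadjusted p under 0.05 (0.00287), and -0.95 ± 0.47 for Tnfrsf12a (adjusted p over 0.99). The cohorts also differed in virus, Cre driver, age at deletion and hepatocyte ploidy, which cannot be told apart here.

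**Figure D1:**
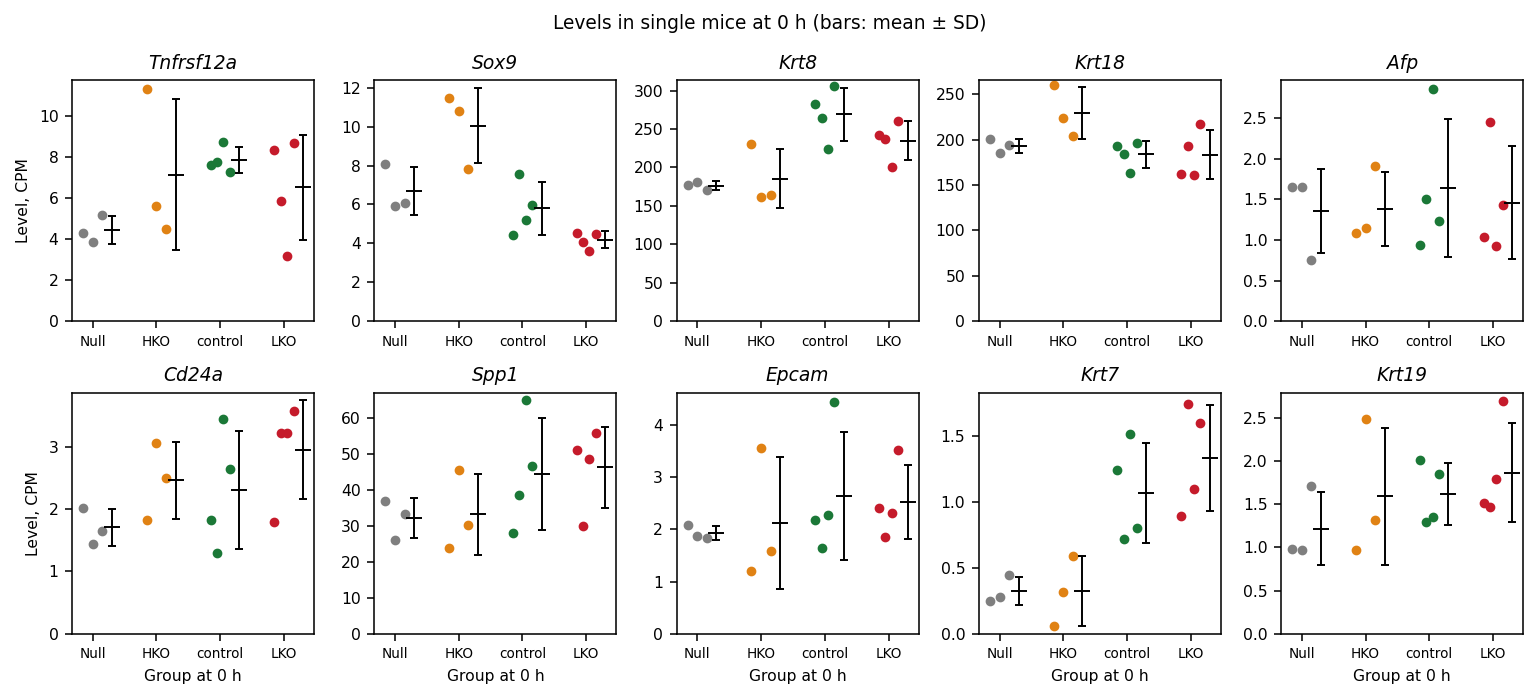
Levels of the 10 genes at 0 h in CPM, from 0 on each vertical axis, in the HKO cohort (Null control and HKO, 3 mice each) and the LKO cohort (control and LKO, 4 mice each). Points are single mice and bars are the mean ± SD. The groups overlap within each cohort except for Krt18 in the HKO cohort, and Krt7 stands higher in the LKO cohort (0.716 to 1.74 CPM) than in the HKO cohort (0.0606 to 0.593 CPM).

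APAP was followed by large shifts in these genes. Each time point was compared with the 8 mice at 0 h over both genotypes, with 2 pools per time point and a genotype term, so the pools of the different genotypes stand in for replicates and all 5 comparisons share the 0 h mice. At 12 h, 4 of the 10 genes were called higher and none lower, against 17% and 14.5% (together 31.5%) of all 13328 genes tested. At 24 h, 5 were higher and none lower (background 14.1% and 12.1%, together 26.1%). At 48 h, 7 were higher and 1 lower (background 10% and 6.71%, together 16.7%). At 72 h, 1 was higher and 1 lower (background 11% and 5.81%, together 16.8%), and at 96 h none was called (background 0.465% in both directions together). The count at 72 h depended on the setting. With the control libraries alone, 1 pool against 4 mice, 5 genes were higher and none lower there (Afp, Krt8, Krt18, Cd24a and Tnfrsf12a, with Epcam no longer called). DESeq2 called 3 higher (Afp, Krt18 and Cd24a) and 1 lower (Epcam) at 72 h, and with the LKO libraries alone only Afp was called. Of all genes at 72 h, 8.09% were called higher and 3.9% lower with the control libraries alone, 11.9% and 6.99% with DESeq2, and 2.23% and 0.0781% with the LKO libraries alone. At 96 h, 5 of the 10 genes had an unadjusted p under 0.05, as did 15.8% of all genes, and DESeq2 called 2 of the 10 (Epcam and Spp1, both lower) and 342 genes in all. The LKO libraries alone hold 1 pool per time point. Their log2 fold changes at 48 h were 1.39 for Sox9, 1.13 for Krt8, 1.12 for Krt18, 0.69 for Spp1 and 0.80 for Tnfrsf12a. Those of Krt19 and Cd24a were -2.03 and -0.31.

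**Figure D2:**
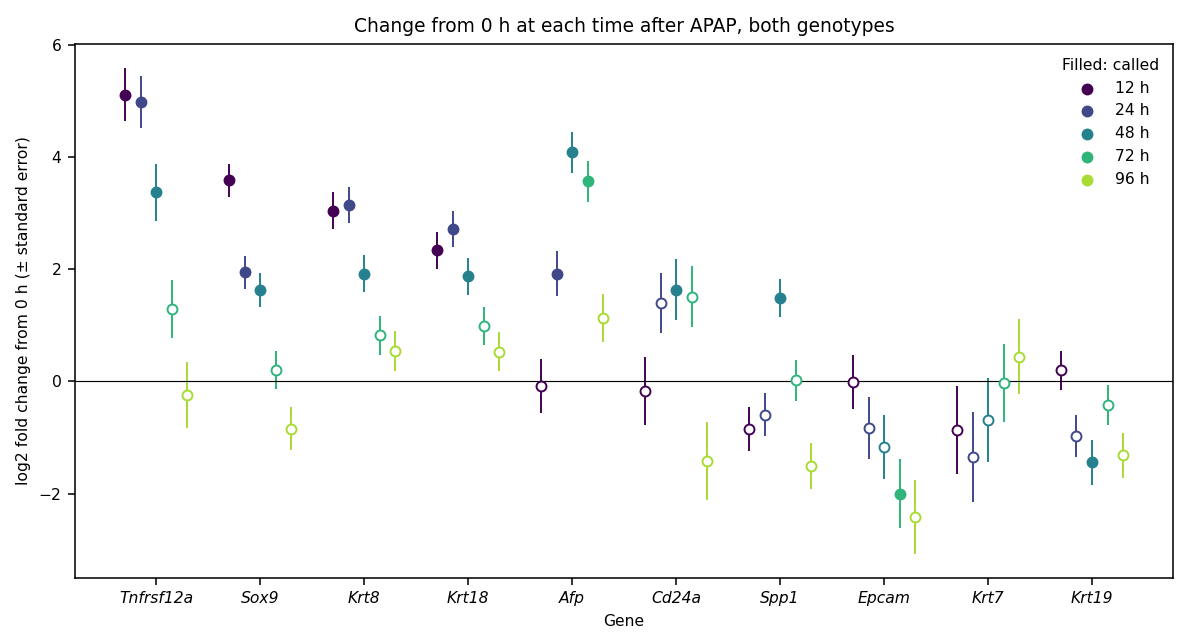
Log2 fold change of each gene from 0 h at 5 time points after APAP, over both genotypes, with standard errors. Filled points passed the test and open points did not. Tnfrsf12a, Sox9, Krt8 and Krt18 are highest at 12 to 24 h and decline, Afp is highest at 48 h (4.08), and Epcam is lowest at 96 h (-2.41).

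Tnfrsf12a (Fn14, ENSMUSG00000023905, chr17:23675445-23677468, minus strand) rose the most of the 10 genes. Control mice at 0 h had 7.61, 7.73, 8.76 and 7.26 CPM and LKO mice 8.33, 5.88, 3.17 and 8.69 CPM. Control pools had 469.7, 328, 207, 36.8 and 8.57 CPM at 12, 24, 48, 72 and 96 h, and LKO pools had 125, 167, 11.3, 7.85 and 4.66 CPM. Control pools lay above all control mice up to 72 h, and LKO pools above all LKO mice up to 48 h. The log2 fold change was 5.11 ± 0.47 at 12 h (SE, adjusted p = 1.89e-06), 4.98 ± 0.47 at 24 h (adjusted p = 4.6e-06) and 3.37 ± 0.51 at 48 h (adjusted p = 0.000277) in edgeR's quasi-likelihood test. Tnfrsf12a ranked 31 of 13328 genes by fold change at 12 h and 40 at 24 h.

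Of 11 genes of TWEAK and TNF receptor signalling, 1 was called higher and 1 lower at 12 h, against 17% and 14.5% of all genes. Map3k14, the NF-κB-inducing kinase, rose by a log2 fold change of 2.11 ± 0.20 (SE, adjusted p = 2.46e-06, edgeR), and Tnfsf12, which encodes TWEAK itself, fell by 1.18 ± 0.38 on the log2 scale (adjusted p = 0.0229). At 24 h only Map3k14 was called (0.97 ± 0.21, adjusted p = 0.00322), and at 48, 72 and 96 h none of the 11 was called, with medians of 0.30, -0.00 and 0.25 against -0.01, -0.04 and -0.02 over all genes.

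Sox9 rose early. Control pools had 122, 29.7, 21.6, 8.64 and 3.19 CPM at 12, 24, 48, 72 and 96 h, and LKO pools 19.6, 12.1, 11.0, 3.73 and 2.41 CPM, against 3.63 to 7.59 CPM in the 8 mice at 0 h. In both genotypes the 96 h pool was the lowest of the time course and lay below all mice of its genotype at 0 h. Its log2 fold change was 3.58 ± 0.29 at 12 h (SE, adjusted p = 5.32e-07), 1.94 ± 0.30 at 24 h (adjusted p = 0.000299) and 1.63 ± 0.30 at 48 h (adjusted p = 0.00163) in edgeR's quasi-likelihood test. It was 0.21 ± 0.34 at 72 h (adjusted p = 0.717).

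Sox9 acts downstream of Notch and YAP signalling in duct development. At 12 h, 4 of the 10 tested Notch pathway genes were called higher (Jag1, Notch1, Notch2 and Hey1) and Heyl lower, against 17% and 14.5% of all genes, with Jag1, a Notch ligand, at a log2 fold change of 1.88 ± 0.23 (SE, adjusted p = 2.23e-05, edgeR). At 24 h none of the 10 was called, at 48 h Jag1 and Nrarp were higher, and at 72 h Hey1 and Heyl were higher, against 10% and 11% of all genes called higher at these times. Of 10 YAP and TEAD genes, 5 were called higher and none lower at 12 h, 3 higher and 1 lower at 24 h, 6 higher and none lower at 48 h, and 1 higher and 1 lower at 72 h. All genes called higher and lower were 17% and 14.5% at 12 h, 14.1% and 12.1% at 24 h, 10% and 6.71% at 48 h and 11% and 5.81% at 72 h, so the shares of this list at 72 h lay near those of all genes. Cyr61 led at 12 h (3.06 ± 0.50, adjusted p = 0.000285), and Ctgf (2.82 ± 0.42, adjusted p = 0.000248) and Ankrd1 (3.43 ± 0.73, adjusted p = 0.00487) were among the genes called at 48 h.

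Krt8 (ENSMUSG00000049382, chr15:101996698-102004482, minus strand) and Krt18 (ENSMUSG00000023043, chr15:102028180-102032027, plus strand) encode the keratin pair of hepatocytes and lie next to each other. Control pools had 4143, 2863, 1645, 624 and 379 CPM of Krt8 at 12, 24, 48, 72 and 96 h, and LKO pools 671, 1804, 512, 324 and 358 CPM, against 200 to 306 CPM in the 8 mice at 0 h. All 10 pools lay above the mice at 0 h, and the highest pool was that of 12 h in controls and of 24 h in LKO. The log2 fold change was 3.04 ± 0.33 at 12 h (SE, adjusted p = 8.82e-06), 3.15 ± 0.32 at 24 h (adjusted p = 8.28e-06) and 1.92 ± 0.33 at 48 h (adjusted p = 0.000930) in edgeR's quasi-likelihood test.

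Krt18 followed the same course. Control pools had 1816, 1678, 1112, 525 and 317 CPM and LKO pools 326, 922, 397, 260.1 and 237 CPM, against 161 to 217 CPM at 0 h, and all 10 pools lay above all 8 mice. In the fit, the log2 fold change was 2.33 ± 0.33 at 12 h (SE, adjusted p = 9.06e-05), 2.72 ± 0.32 at 24 h (adjusted p = 3.29e-05) and 1.87 ± 0.33 at 48 h (adjusted p = 0.00102) in edgeR's quasi-likelihood test. At 72 h it was 0.98 ± 0.34 (adjusted p = 0.0544 in edgeR's test), and it was called there in 6 of 14 alternatives, DESeq2 (adjusted p = 0.0275) among them. With the control libraries alone, 1 pool against 4 mice, it was 1.56 at 72 h. With the LKO libraries alone, 1 pool against 4 mice, it was 0.86 at 12 h and not called (adjusted p = 0.0575).

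The level of Krt8 relative to Krt18, both per kilobase of exon, was not constant. It lay between 0.882 and 1.15 in the 8 mice of the LKO cohort at 0 h, at 1.67 and 1.51 in the control and LKO pools at 12 h, and at 1.25 and 1.44 at 24 h. In the 6 mice of the HKO cohort it lay between 0.532 and 0.719, below every library of the LKO cohort. The cohorts differ in virus and in the share of reads without a gene feature, and the part of these in the ratio was not tested. The gene Gm36026 overlaps Krt8 on the other strand. Ambiguous reads were left out and the annotation version is not given, so whether reads of the overlap were counted for Krt8 is not known.

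**Figure D3:**
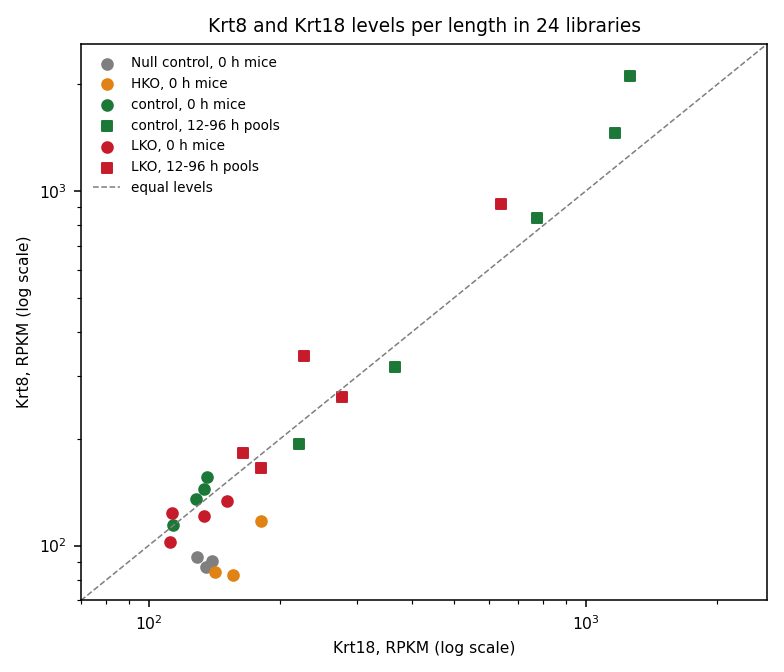
Krt8 against Krt18 in RPKM in all 24 libraries, both axes on a log scale. Circles are single mice at 0 h, squares are pools after APAP, and the dashed line marks equal levels. The pools of 12 and 24 h lie above the line (ratio 1.25 to 1.67) and the 6 mice of the HKO cohort below it (0.532 to 0.719).

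Genes that link keratin filaments to cell junctions were tested as well. Of 9 such genes at 12 h, 6 were called higher and 1 lower, against 17% and 14.5% of all genes. Those higher were led by Eppk1 (log2 fold change 2.24 ± 0.20, SE, adjusted p = 1.52e-06, edgeR), Plec (2.02 ± 0.22, adjusted p = 8.82e-06) and Ppl (3.38 ± 0.41, adjusted p = 2.64e-05), all of the plakin family of linkers, and the lower one was Dsc2, a desmosomal cadherin. At 24 h, 1 was higher (Ppl) and 1 lower (Dsc2), against 14.1% and 12.1% of all genes, and at 48 h 2 were higher (Eppk1 and Evpl) against 10%. None was called at 72 or 96 h.

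Afp (ENSMUSG00000054932, chr5:90490737-90508907, plus strand) rose later than the keratins. The 4 control mice at 0 h had 0.944, 1.5, 2.86 and 1.23 CPM and the 4 LKO mice 1.03, 2.45, 0.922 and 1.43 CPM. Control pools had 1.88, 7.33, 49.3, 24.1 and 3.75 CPM at 12, 24, 48, 72 and 96 h, and LKO pools 1.05, 4.76, 10.5, 14.0 and 3.12 CPM. Pools of 12 h lay within the range of the mice at 0 h, and all later pools lay above it in both genotypes. The log2 fold change was -0.09 ± 0.49 at 12 h (SE, adjusted p = 0.908), 1.92 ± 0.40 at 24 h (adjusted p = 0.00214), 4.08 ± 0.37 at 48 h (adjusted p = 2.58e-06) and 3.56 ± 0.37 at 72 h (adjusted p = 3.07e-06) in edgeR's quasi-likelihood test. With the LKO libraries alone, again 1 pool against 4 mice, it was 1.70 at 24 h and not called (adjusted p = 0.0655).

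At 48 h Afp ranked 107 of 13328 genes by fold change. Of 3 genes that repress Afp after birth, Zhx2 was called lower at 12 h (-0.65 ± 0.24 on the log2 scale, SE, adjusted p = 0.0462, edgeR), 24 h (-1.19 ± 0.25, adjusted p = 0.00245), 48 h (-1.08 ± 0.25, adjusted p = 0.00722) and 72 h (-0.77 ± 0.24, adjusted p = 0.0359). Zfhx3 was called lower at 24 h (-0.84 ± 0.27, adjusted p = 0.0275, edgeR), and Zbtb20 was not called. Of all genes, 14.5%, 12.1%, 6.71% and 5.81% were called lower at 12, 24, 48 and 72 h. The log2 fold change was positive for 2 of the 3 genes at 12 h, for none at 24 h, and for 1 at 48 h and at 72 h. The part of these genes in the rise of Afp was not tested. The gene Gm43449 lies antisense to Afp, and whether reads of the overlap were counted for Afp is likewise not known.

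Of 12 other genes of the fetal liver, 7 were tested. At 12 h, 1 was called higher and 1 lower, against 17% and 14.5% of all genes. Igf2bp2 was called higher at 12 h (1.83 ± 0.37, SE, adjusted p = 0.00130, edgeR), and none was called higher at 24, 48, 72 or 96 h. Lgr5, a Wnt target of hepatocytes around the central vein, was called lower at 12 h (-2.81 ± 0.60, adjusted p = 0.00206), 24 h (-2.73 ± 0.60, adjusted p = 0.00301) and 48 h (-2.17 ± 0.55, adjusted p = 0.0125).

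Spp1 (ENSMUSG00000029304, chr5:104435118-104441050, plus strand) is made by duct cells and by macrophages, and Gm42793 overlaps it on the same strand. Control mice at 0 h had 27.9, 38.5, 64.8 and 46.6 CPM and LKO mice 51, 29.8, 48.5 and 55.7 CPM. Control pools had 37.3, 23.1, 191, 56.5 and 15.4 CPM at 12, 24, 48, 72 and 96 h and LKO pools 13.7, 35.9, 74.3, 37.3 and 16.8 CPM. In both genotypes 48 h was the only pool above all mice, and the 96 h pool lay below them, as did the control pool of 24 h and the LKO pool of 12 h. Against 0 h, the log2 fold change was 1.49 ± 0.34 at 48 h (SE, adjusted p = 0.00657 in edgeR's quasi-likelihood test), and it was not called at the other times, when it lay between -1.51 (96 h) and 0.02 (72 h). With the LKO libraries alone, 1 pool against 4 mice, the log2 fold change of Spp1 was -1.73 at 12 h, with no replicate check.

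The summed level of 10 macrophage markers was 167 to 421 CPM in the 8 mice at 0 h. In the control and LKO pools it was 169 and 150 CPM at 12 h, 146 and 159 CPM at 24 h, 242 and 360.3 CPM at 48 h, 847 and 969 CPM at 72 h, and 535 and 205 CPM at 96 h. All 10 markers were found in the files, with only Gpnmb, a marker of lipid-laden and scavenging macrophages, at 0 counts in some libraries. At 12 h, 2 of 10 were called higher and 1 lower (17% and 14.5% of all genes), and at 24 h, 4 higher and 3 lower (14.1% and 12.1%). At 48 h, 5 of 10 were called higher and none lower, with Gpnmb, Trem2, Ccr2 and Cd68 having the smallest adjusted p. At 72 h 6 were called higher and at 96 h 4, with none lower. Of all genes, 10% were called higher at 48 h, 11% at 72 h and 0.465% in either direction at 96 h. Macrophage markers were thus highest at 72 h, when Spp1 was back in the range of the 0 h mice in both genotypes, and their part in the level of Spp1 was not tested.

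Of 8 receptors of osteopontin, 3 were called higher and 1 lower at 12 h (17% and 14.5% of all genes), 3 higher at 24 h (14.1%), 4 higher at 48 h (10%) and 1 higher at 72 h (11%). Cd44 led at 48 h (2.25 ± 0.24 on the log2 scale, SE, adjusted p = 9.16e-06, edgeR), followed by the integrin subunits Itgav (0.97 ± 0.24, adjusted p = 0.0115), Itgb3 (1.23 ± 0.36, adjusted p = 0.0240) and Itga5 (0.62 ± 0.18, adjusted p = 0.0254). Cd44 was also called at 24 h (1.06 ± 0.25, adjusted p = 0.00520) and 72 h (2.19 ± 0.24, adjusted p = 5.18e-06).

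Cd24a (ENSMUSG00000047139, chr10:43578284-43584265, plus strand) encodes a surface glycoprotein of duct progenitors that neutrophils and lymphocytes also carry. Control mice at 0 h had 1.83, 1.29, 3.45 and 2.65 CPM and LKO mice 1.79, 3.21, 3.23 and 3.57 CPM. Control pools had 3.12, 7.02, 16.9, 15.2 and 1.13 CPM at 12, 24, 48, 72 and 96 h, and LKO pools 1.76, 7.15, 2.37, 2.44 and 0.932 CPM. Control pools of 24, 48 and 72 h lay above all control mice, and of the LKO pools only that of 24 h lay above all LKO mice.

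Over both genotypes, Cd24a was called only at 48 h in the edgeR test (log2 fold change 1.63 ± 0.55, SE, adjusted p = 0.0470 in edgeR's quasi-likelihood test), and the genotypes differed in sign: with the LKO libraries alone, 1 pool against 4 mice, the log2 fold change was -0.31, and with the control libraries alone, again 1 pool against 4 mice, it was 2.90. The difference at this time point was not tested. The call was also lost on leaving out any 1 of the 4 control mice or the LKO mouse of replicate 1, with adjusted p between 0.0564 and 0.0899, while the log2 fold change stayed between 1.43 and 1.65. At 24 h Cd24a had 1.40 (adjusted p = 0.0564) and was called in 4 of 14 alternatives: by DESeq2 (adjusted p = 0.0407), by library size only (0.0408), and without the LKO mouse of replicate 2 (0.0487) or replicate 4 (0.0440). At 72 h it had 1.51 (adjusted p = 0.0642 in edgeR's test) and was called by DESeq2 (1.54, adjusted p = 0.0303). With the control libraries alone, 1 pool against 4 mice, it had 2.77 there. The summed level of 5 neutrophil markers was 2.48 to 11.4 CPM at 0 h. In the control and LKO pools it was 15.6 and 17.4 CPM at 12 h, 13.6 and 31.0 CPM at 24 h, 32.0 and 10.2 CPM at 48 h, 26.6 and 8.18 CPM at 72 h, and 8.57 and 2.14 CPM at 96 h. Retnlg and Mmp8 were at 0 counts in some libraries, lymphocyte markers summed to 1.01 to 6.16 CPM over the 10 pools, and the part of either cell type in the level of Cd24a was not tested.

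Epcam (ENSMUSG00000045394, chr17:87635979-87651129, plus strand), the adhesion protein of duct cells, fell. Control mice at 0 h had 2.18, 1.65, 2.27 and 4.43 CPM and LKO mice 2.41, 1.85, 2.31 and 3.52 CPM. Control pools had 5.13, 1.82, 1.16, 0.654 and 0.850 CPM at 12, 24, 48, 72 and 96 h and LKO pools 0.586, 1.19, 1.13, 0.622 and 0.219 CPM. All 5 LKO pools and the control pools of 48, 72 and 96 h lay below all mice of their genotype, and the control pool of 12 h lay above. The log2 fold change was -2.0 ± 0.62 at 72 h (SE, adjusted p = 0.0332 in edgeR's quasi-likelihood test), where Epcam ranked 66 from the lowest of 13328 genes, and -2.41 ± 0.66 at 96 h (adjusted p = 0.100). These values rest on 4 to 13 counts in the pools of 72 and 96 h, and at 72 h the log2 fold change was -1.96 in the control libraries alone and -2.0 in the LKO libraries alone, neither called with 1 pool each.

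The duct keratins had low counts. Krt19 (ENSMUSG00000020911, chr11:100140810-100148665, minus strand) had 1.29 to 2.01 CPM in control mice and 1.47 to 2.69 CPM in LKO mice at 0 h. Its control pools had 2.01, 0.787, 0.810, 1.37 and 0.638 CPM at 12, 24, 48, 72 and 96 h and its LKO pools 1.88, 0.984, 0.452, 1.24 and 0.768 CPM. Only the control pool of 12 h, at 2.014 CPM, exceeded the mice of its genotype, and 7 of 10 pools lay below them. Krt19 was called lower at 48 h (-1.45 ± 0.40 on the log2 scale, SE, adjusted p = 0.0191 in edgeR's quasi-likelihood test), on 16 and 8 counts. It was -0.98 in the control libraries alone and -2.03 in the LKO libraries alone, neither called with 1 pool each.

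Krt7 (ENSMUSG00000023039, chr15:101411043-101430313, plus strand), which Gm671 overlaps on the other strand, had 0.716 to 1.52 CPM in control mice and 0.895 to 1.74 CPM in LKO mice at 0 h. Its control pools had 1.43, 0.424, 1.37, 1.05 and 1.77 CPM at 12, 24, 48, 72 and 96 h, and its LKO pools 0, 0.518, 0.226, 1.29 and 1.59 CPM. The LKO pool of 12 h had no count, and against a limit of 3 counts in that library (0.176 CPM) its level was at least 7.57-fold lower than the mean of the LKO mice at 0 h. Krt7 was not called over both genotypes at any time, with log2 fold changes from -1.35 at 24 h to 0.44 at 96 h. The drop of Krt7 at 12 h in LKO rests on 1 pool with no count against 4 mice, and it has no replicate check.

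Of 16 other cholangiocyte genes, 11 were tested. The genes called numbered 1 at 12 h, 2 at each of 24, 48 and 72 h and none at 96 h, against 31.5%, 26.1%, 16.7%, 16.8% and 0.465% of all genes. None was called higher at 12, 24, 48 or 96 h, and Elf3, an epithelial transcription factor, was called higher at 72 h (1.65 ± 0.53 on the log2 scale, SE, adjusted p = 0.0385, edgeR). Those called lower were Dcdc2a at 12, 24 and 48 h (-1.45, -2.11 and -1.66), Ehf at 24 h (-2.73), and Krt23 at 48 and 72 h (-2.66 and -2.69). Their median log2 fold change was -0.18, -0.60, 0.09, -0.19 and -0.88 at the 5 times, against values between -0.04 and -0.00 over all genes. The summed level of the 16 genes lay between 22.0 and 41.3 CPM over the 10 pools.

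The last comparison asked how LKO livers differed from controls after APAP. All 10 genes had a negative log2 fold change over 12–96 h, with a median of -1.17 against -0.01 over all genes, but none was called in edgeR's quasi-likelihood test with the time point as a block, against 0.579% of 12782 genes tested (0.329% lower). At an unadjusted p under 0.05 there were 6 of the 10 genes and 17.9% of all genes, and DESeq2 called these same 6 lower (Sox9, Krt8, Krt18, Afp, Cd24a and Tnfrsf12a). DESeq2 called 606 of all genes, 375 of them lower (2.93% of genes tested), against 74 and 42 in edgeR's test.

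Tnfrsf12a had a log2 fold change of -2.03 ± 0.42 (SE, adjusted p = 0.0620 in edgeR's quasi-likelihood test), Cd24a had -1.40 ± 0.45 (adjusted p = 0.163), Sox9 -1.38 ± 0.27 (adjusted p = 0.0579), Krt18 -1.27 ± 0.27 (adjusted p = 0.0660), Krt8 -1.21 ± 0.32 (adjusted p = 0.108) and Afp -1.0 ± 0.28 (adjusted p = 0.118). Epcam had -1.12 ± 0.51 (adjusted p = 0.285), Krt7 -1.01 ± 0.70 (adjusted p = 0.473), Spp1 -0.56 ± 0.29 (adjusted p = 0.334) and Krt19 -0.11 ± 0.36 (adjusted p = 0.903). All adjusted p-values lay above the threshold, and calls changed with the setting: 4 genes (Sox9, Krt8, Krt18 and Tnfrsf12a) were called lower in a joint fit with the 0 h mice, with all genes that had at least 1 count, and without the 96 h pools. The calls over all genes also grew in these fits, to 314 (193 or 1.45% lower), 337 (215 or 1.19% lower) and 177 (140 or 1.08% lower). No setting made any of these 4 higher in LKO.

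At single time points the LKO pool was the lower one for all 10 genes at 12 and 48 h, for 9 at 72 h, for 8 at 96 h and for 6 at 24 h. It was at least 2-fold lower for 7 of 10 at 12 h, against 11.3% of 13328 genes. The same count was 1 at 24 h against 4.17% of genes, 7 at 48 h against 8.74%, 4 at 72 h against 6.1% and 1 at 96 h against 4.16%. None of the 10 was at least 2-fold higher in an LKO pool, against 8.82%, 2.93%, 6.9%, 6.36% and 6.2% of genes from 12 to 96 h. With 1 pool per genotype and time point, these ratios have no replicate check. In 6 genes (Sox9, Krt8, Krt18, Epcam, Afp and Tnfrsf12a) the LKO pool was lower at all 5 times, and 17.1% of all genes tested kept 1 direction at all 5.

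The widest gaps were those of Tnfrsf12a at 48 h, with 11.3 CPM in LKO against 207 CPM in control (log2 ratio -4.18), and of Krt7 at 12 h, with 0 against 22 counts, at least 8.12-fold lower. Epcam at 12 h (-2.89), Cd24a at 48 h (-2.77), Krt8 and Sox9 at 12 h (-2.63 each), Cd24a at 72 h (-2.58) and Krt18 at 12 h (-2.48) followed. At 96 h the ratios ran from -1.51 (Epcam) and -0.86 (Tnfrsf12a) to 0.23 (Krt19), with the other 7 genes between -0.42 and 0.13.

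**Figure D4:**
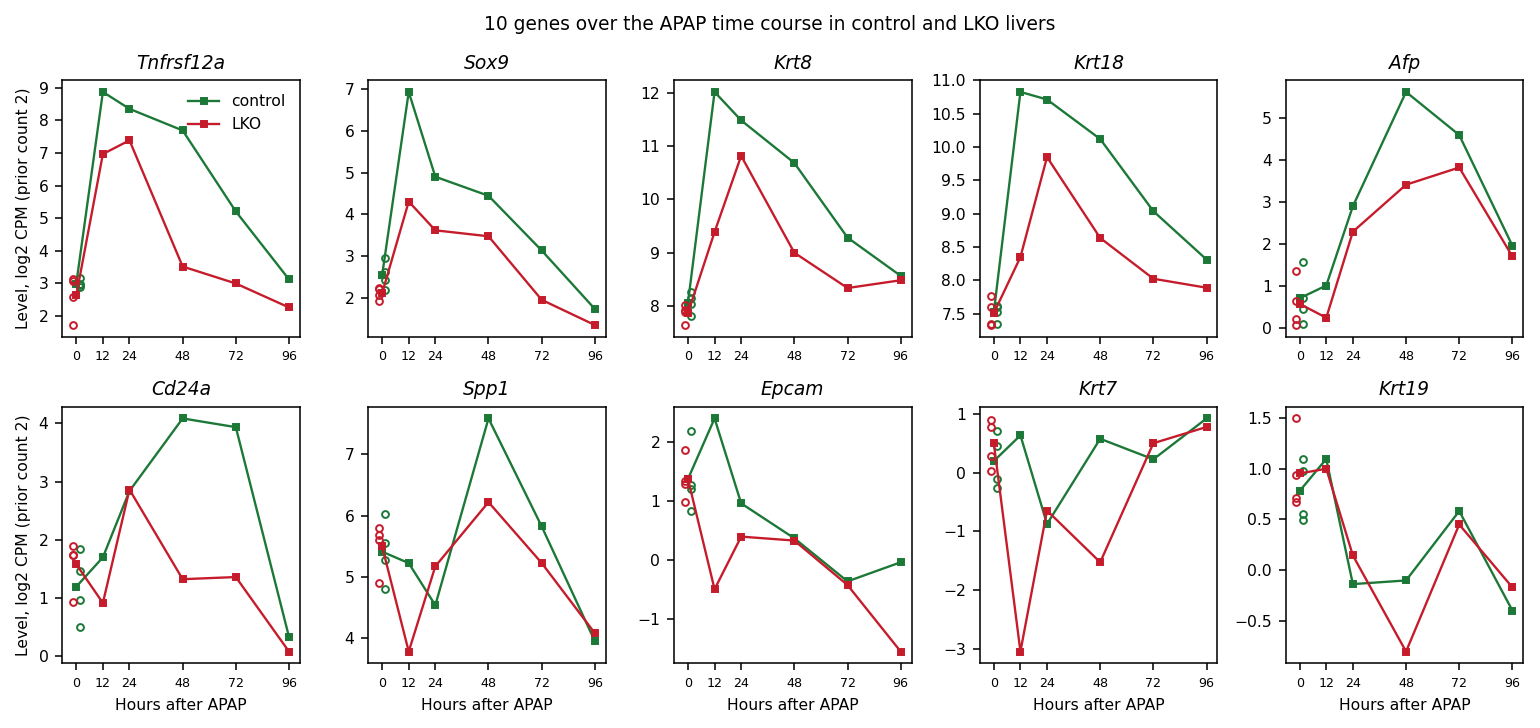
Levels of the 10 genes in log2 CPM (prior count 2) against hours after APAP, in control (green) and LKO (red). Open circles are single mice at 0 h, squares joined by lines are pools, and each line starts at the mean of 4 mice. The control line lies above the LKO line at all 5 times for Tnfrsf12a, Sox9, Krt8, Krt18, Afp and Epcam.

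**Figure D5:**
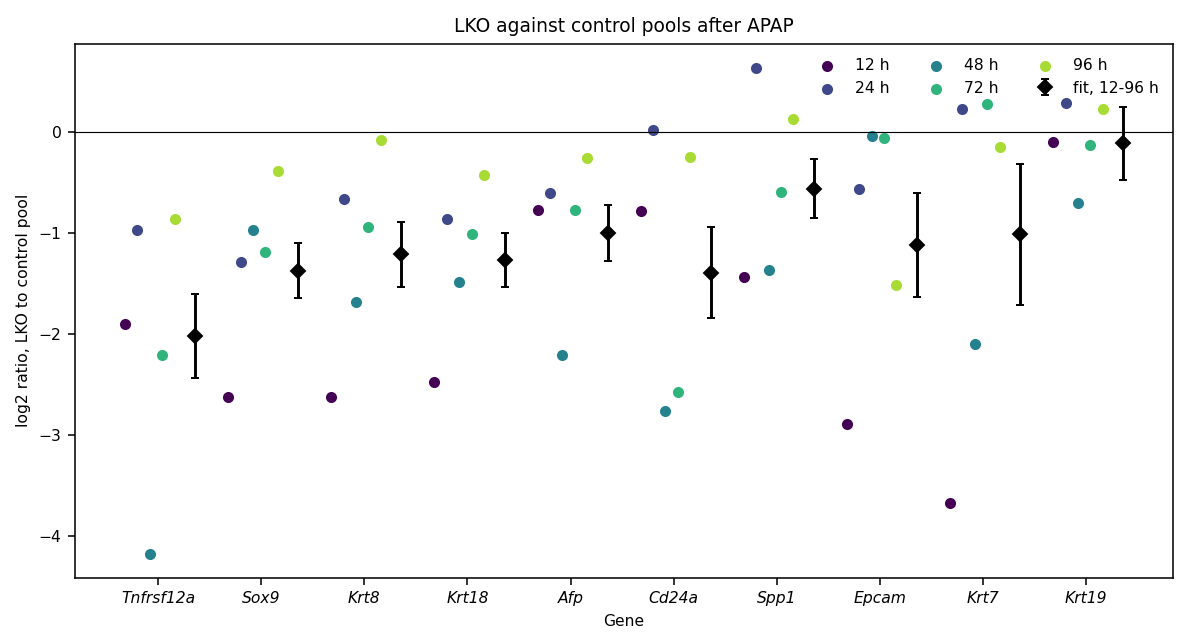
Log2 ratio of the LKO to the control pool for each gene, by time after APAP (circles, log2 CPM with a prior count of 2), with the fit over 12–96 h and its standard error (diamonds). All 10 diamonds lie below 0, from -0.11 (Krt19) to -2.03 (Tnfrsf12a), and none passed the test. The lowest circle of Krt7 compares 0 with 22 counts.

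The difference between the genotype effect after APAP and at 0 h was called for none of the 10 genes, nor for any of 13328 genes tested (0%). DESeq2 called 39 genes. At an unadjusted p under 0.05 in edgeR's test there were 5 of the 10 genes and 1285 of all genes (9.64%). The difference was -1.26 ± 0.32 for Krt18 (SE, adjusted p = 0.365 in edgeR's quasi-likelihood test), which DESeq2 called (adjusted p = 0.0405). In edgeR's test it was -1.76 ± 0.56 for Tnfrsf12a (adjusted p = 0.417) and -1.76 ± 0.62 for Cd24a (adjusted p = 0.453). For Krt8 it was -1.01 ± 0.38 and for Sox9 -0.90 ± 0.36 (adjusted p = 0.474 each in that test). The genotype effect at 72–96 h did not differ by the test from that at 12–48 h for any of the 10 genes, against 0.165% of all genes called, with the smallest adjusted p for Krt8 (1.13 ± 0.45 on the log2 scale, adjusted p = 0.350). Krt8 and Krt18 had an unadjusted p under 0.05 there, as did 11.8% of all genes, and DESeq2 called none of the 10.

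Markers of other cells were also compared between the genotypes over 12–96 h. None of 10 macrophage, 5 tested neutrophil, 10 stellate cell, 9 tested hepatocyte or 6 proliferation markers was called, against 0.579% of 12782 genes tested. The median log2 fold changes of these lists were -0.12, -0.77, -0.33, 0.09 and -0.13, and 5, 0, 3, 5 and 2 genes had positive values. The summed level of the hepatocyte markers was 82930 to 127500 CPM in control mice and 57110 to 96520 CPM in LKO mice at 0 h. In the control and LKO pools it was 103700 and 66390 CPM at 12 h, 105900 and 82280 CPM at 24 h, 90040 and 99410 CPM at 48 h, 132600 and 103200 CPM at 72 h, and 112100 and 94130 CPM at 96 h. The LKO pool was the lower one at all times but 48 h, and both 12 h pools lay within the range of their own 0 h mice. The part of a change in cell makeup in the lower levels of LKO pools was not tested.

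The patterns of the genes over the 18 libraries of the LKO cohort are given as a description, since all libraries share the time course. Krt8 and Krt18 were closest to each other (Pearson r of log2 CPM 0.985), and Tnfrsf12a followed Krt8 (0.954), Krt18 (0.924) and Sox9 (0.906). The genes most like Tnfrsf12a were Ctps (0.978), a CTP synthase, and Cd14 (0.973), the lipopolysaccharide co-receptor, and the gene most like Sox9 was Kctd3 (0.958), followed by Frmd6 (0.950). Afp was most like Cd44 (0.942) and S100a6 (0.927), Cd24a most like Tubb2b (0.887) and Tgfa (0.872), and Spp1 most like Sorbs2 (0.787) and F2r (0.785). After each other, Krt8 was most like Hmga2-ps1 (0.968) and Krt18 most like S100a10 (0.957). Epcam (Scara3, 0.797, and Klf2, 0.793), Krt19 (Ache, 0.846, and N4bp1, 0.836) and Krt7 (Snrnp48, 0.806, and Ntn1, 0.797) had low counts, so weak likeness in them is no finding.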

How the data were processed

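RNA-seq was made from polyA RNA of snap-frozen whole liver extracted with TRIzol. The deposited values are whole-number read counts per gene, which the authors made by trimming with Trimmomatic and aligning to mm10 with STAR. The annotation version is not given in the sources used here. The counts that disregard strand were used, since both stranded columns were nearly equal. Rows that name no gene (unmapped, multimapping, no feature and ambiguous reads) held 18.7% to 39.9% of the reads of a library and were left out.

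Counts were tested with edgeR 4.0.16 (limma 3.58.1, R 4.3.3) by the quasi-likelihood test, after filterByExpr and TMM scaling, with Benjamini-Hochberg adjustment over all genes tested. Calls required an adjusted p below 0.05 together with a change of 1.5-fold or more. Standard errors were derived from this test, as the absolute log2 fold change divided by the square root of its F statistic. LKO and HKO were compared with their controls at 0 h, LKO pools with control pools over 12–96 h in a model that blocks on time, and each time point with 0 h with genotype as a term. DESeq2 1.42.0, other scalings, filters, columns, sample sets and the replicate number as a block were alternatives. Nothing in the labels ties mice of the same number, and the p-values of pools measure only the spread between these libraries. In fits of 1 genotype alone, each time point after APAP is 1 pool. Calls in those fits rest on the spread between the mice at 0 h and do not measure that between pools. Levels are CPM on TMM-scaled library sizes, log2 levels used a prior count of 2, and RPKM used exon lengths of GENCODE vM21 (GRCm38), which held 95.8% of the symbols. Simulated 2-fold changes were found for 55% of genes in the LKO comparison over 12–96 h and 33% in that of 48 h with 0 h, and 4-fold changes for 90% and 85%.

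The 10 genes and all lists were chosen with earlier results of these data known. All 10 genes were named in each comparison. Of the other lists, genes called in a comparison were named, up to 4 by smallest adjusted p, and for each of the 10 genes the 2 most alike by Pearson r. Marker genes at 0 counts, Alb and Zbtb20, and Heyl, Dsc2 and Col1a1 at 12 h, were named after their values were seen. Ly6g of the neutrophil markers was not used here.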

Additional observations from a re-analysis of the deposited data

How the results depend on the processing

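None of the 10 genes was called for LKO or HKO at 0 h, or for the difference between them, under any alternative. Over 12–96 h, LKO against control called 0 of the 10 genes, but 6 with DESeq2, 4 with all genes of at least 1 count, 2 with the stranded column, 4 in a joint fit with the 0 h mice, and 0 to 4 on leaving out 1 time point (4 without 96 h). The genes called there numbered 74, against 606 with DESeq2, 42 by library size only (30 higher and 12 lower, where TMM gave 32 and 42), 337 with at least 1 count, 34 with at least 10 counts, 314 in the joint fit, 0 with no time term, and 9 (without 12 h) to 177 (without 96 h) on leaving out 1 time point. Scaling by library size alone put the all-gene median of the log2 pool ratios (LKO over control) between -0.14 (48 h) and 0.22 (96 h). All genes called at 0 h with DESeq2 numbered 3 for LKO and 331 for HKO, where 255 were called with at least 1 count, 31 in a joint fit, and 54 (without Null control replicate 1) to 297 (without HKO replicate 1) on leaving out 1 mouse. For LKO the latter gave 0 to 1. The difference of LKO and HKO effects called 21 genes with DESeq2, 2 with at least 1 count and 0 to 3 without 1 mouse. The difference between 12–96 h and 0 h called 39, 2 and 0 to 2 genes likewise, and 1 of the 10 with DESeq2 (Krt18, -1.26). That between late and early times called 22 genes, 187 with DESeq2, 34 by library size and 0 to 22 without 1 time point. At 72 h, 4 of the 10 genes were called with DESeq2, 5 with control libraries only and 1 with LKO libraries only. At 96 h, 62 genes were called, 342 with DESeq2, 41 by library size, 9 with control and 10 with LKO libraries only, and 18 to 82 without 1 mouse, with 2 of the 10 by DESeq2. Control libraries alone called 1670 genes at 24 h, and LKO libraries alone 1281 at 12 h, 1023 at 24 h, 172 at 48 h (1 of the 10) and 296 at 72 h. With the LKO libraries alone, 1 pool against 4 mice, Cd24a at 48 h turned to -0.31. In that fit Sox9, Krt8, Krt18, Spp1 and Tnfrsf12a had 1.39, 1.13, 1.12, 0.69 and 0.80 at 48 h, each below its value over both genotypes. The cause of these changes was not tested.

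Replicate numbers did not pair the mice: deviations of mice of the same number correlated at -0.346 to 0.196 in the LKO cohort and -0.054 to 0.141 in the HKO cohort. With the replicate number as a block, 263 genes were called for HKO (all 119 among them), 0 for LKO and 0 for their difference, and 0 of the 10 genes in each. In neither cohort did every mouse correlate best with its own number. Depth limits Krt7, Krt19 and Epcam most, with 0 to 79 counts in a pool.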

Other observations

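Genes of other cell types and of the cell cycle also changed after APAP, over both genotypes against the 8 mice at 0 h. All 6 proliferation markers were called higher at 48 and 72 h, against 10% and 11% of all genes, with Top2a, a topoisomerase of dividing cells, at a log2 fold change of 4.39 ± 0.23 (SE, adjusted p = 1.09e-08) and 5.34 ± 0.23 (adjusted p = 4.06e-10) in edgeR's quasi-likelihood test. Of 10 stellate cell and matrix markers, 3 were called lower at 12 h (14.5% of all genes), 2 higher and 2 lower at 24 h (14.1% and 12.1%), 6 higher at 48 h (10%), 8 higher at 72 h (11%) and 2 higher at 96 h (0.465% in either direction). Col1a1, a chain of fibrillar collagen, went from -1.65 ± 0.34 at 12 h (adjusted p = 0.00158) to 2.21 ± 0.24 at 48 h (adjusted p = 1.29e-05) and 4.51 ± 0.23 at 72 h (adjusted p = 3.34e-09). Afp and Cd24a were highest at 48 h in control pools, when proliferation markers summed to 156 CPM. These markers summed to 309 CPM at 72 h, against 21.5 to 32.1 CPM in the control mice at 0 h. In LKO pools they summed to 150.5 CPM at 48 h and 266.8 CPM at 72 h, against 22.7 to 32.0 CPM in the LKO mice. There Cd24a was highest at 24 h and Afp at 72 h. A link between these courses was not tested.

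Of 9 tested hepatocyte markers, 4 were called lower at 12 h (14.5% of all genes), 5 at 24 h (12.1%), 4 at 48 h (6.71%) and 3 at 72 h (5.81%), and Apoa1 was called higher at 24 h. Cyp2f2, a cytochrome P450 of periportal hepatocytes, had -2.03 ± 0.23 at 24 h (SE, adjusted p = 3.12e-05 in edgeR's quasi-likelihood test). The same shares of all genes called lower, with 17%, 14.1% and 10% called higher at 12, 24 and 48 h, are the background for the next lists. Of 6 endothelial markers, Stab2 and Kdr were called lower at 24, 48 and 72 h and Clec4g at 12 h, and Lyve1 was called higher at 12, 24 and 48 h and Cdh5 at 12 h. Of 5 erythroid markers 1 was tested, Alas2, which was called lower from 12 to 72 h with the lowest value at 24 h (-1.85 ± 0.24, adjusted p = 8.2e-05). Of 4 tested mesothelial markers, Upk3b was called lower at 12, 24 and 48 h and Msln at 12 h. Of 3 tested lymphocyte markers, Cd3e was called higher at 48 h (1.69 ± 0.57, adjusted p = 0.0498), the only one called, while Cd79a had a negative value (-1.91 ± 0.75, adjusted p = 0.0858).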
